A study of Mus musculus with 9 samples.

Results

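A set of 7 genes that mark the goblet cell, the mucus-secreting cell of the gut lining, is described here across 3 mouse organoid cultures: Muc2, Tff3, Spdef, Fcgbp, Agr2, Clca1 and Zg16. They were chosen by symbol and make up 7 of the 24505 genes in the GRO-seq table, and all 7 were among the 16563 genes with values high enough to be tested. The cultures are mini-guts (organoids) from the mouse duodenum. In GRO-seq, 2 libraries each came from the RANKL culture, labelled as intestinal M cell, from the ENRI culture, labelled as enterocyte, and from the WENRC culture, labelled as intestinal stem cell. The labels do not spell out these culture names, so they are used as names. RANKL is also the name of the cytokine known to induce M cells, the antigen-sampling cells of the gut lining. No group carries a named genetic change, and the strain, sex and age of the mice and the length of each culture are not given in the sources used here. GRO-seq (global run-on sequencing) labels the RNA that polymerases already on a gene extend in isolated nuclei, so the values stand for nascent transcription and not for messenger RNA or protein. H3K27me3, a histone modification that Polycomb proteins place on silenced genes, was mapped by ChIP-seq (chromatin immunoprecipitation and sequencing) in RANKL (2 libraries, pooled by the authors) and WENRC (1 library).

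Goblet cells arise from secretory progenitors in the crypt and release mucus that keeps bacteria away from the epithelium. The mucus gel is built of MUC2, a large glycosylated protein that forms disulphide-linked polymers, together with proteins that bind or process it. FCGBP and CLCA1 are abundant mucus components, and CLCA1 is a metalloprotease that can cleave MUC2. ZG16 is a lectin that binds the walls of Gram-positive bacteria, TFF3 is a small trefoil peptide of mucosal repair, AGR2 is a protein disulphide isomerase of the endoplasmic reticulum needed for mucin folding, and SPDEF is the ETS-family transcription factor of goblet and Paneth cell maturation.

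In the WENRC culture, transcription of 4 of the 5 secreted mucus proteins (Muc2, Fcgbp, Clca1 and Zg16) was lower than in both other cultures. The folds were 4.30 to 20.5 against ENRI and 5.21 to 10.3 against RANKL. The deposited values appear to draw low genes together, which makes such folds smaller. By the authors' own log2 changes Zg16 differed by -7.25 in WENRC minus ENRI and by 6.02 in RANKL minus WENRC. The limma changes were -4.36 and 3.36. Between the RANKL and ENRI cultures the 5 secreted proteins differed by -0.997 to 0.28 on the log2 scale. None of them passed the test. In simulated data, with 200 of 16563 genes changed, the test recovered 24% of genes changed by 1 in this comparison. The simulation gave all 3 cultures the same spread per gene, and 3464 genes were called in the real comparison. The 24% is therefore not a recovery rate for the real data, where changes of that size can still be missed. Zg16 was lower in RANKL by the authors' deposited adjusted p (0.0313). The regulator Spdef had its highest values in RANKL and was the only member called between RANKL and ENRI. Agr2 varied least and passed the test in none of the 3 comparisons. Values below are the authors' normalized GRO-seq values on a log2 scale, with mean ± SD over 2 libraries. Changes carry the standard error (SE) of a limma fit of all 6 libraries, and a gene was called at a Benjamini-Hochberg adjusted p under 0.05 over the 16563 genes. Fewer goblet cells and less transcription per cell cannot be told apart in bulk cultures.

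**Figure D1:**
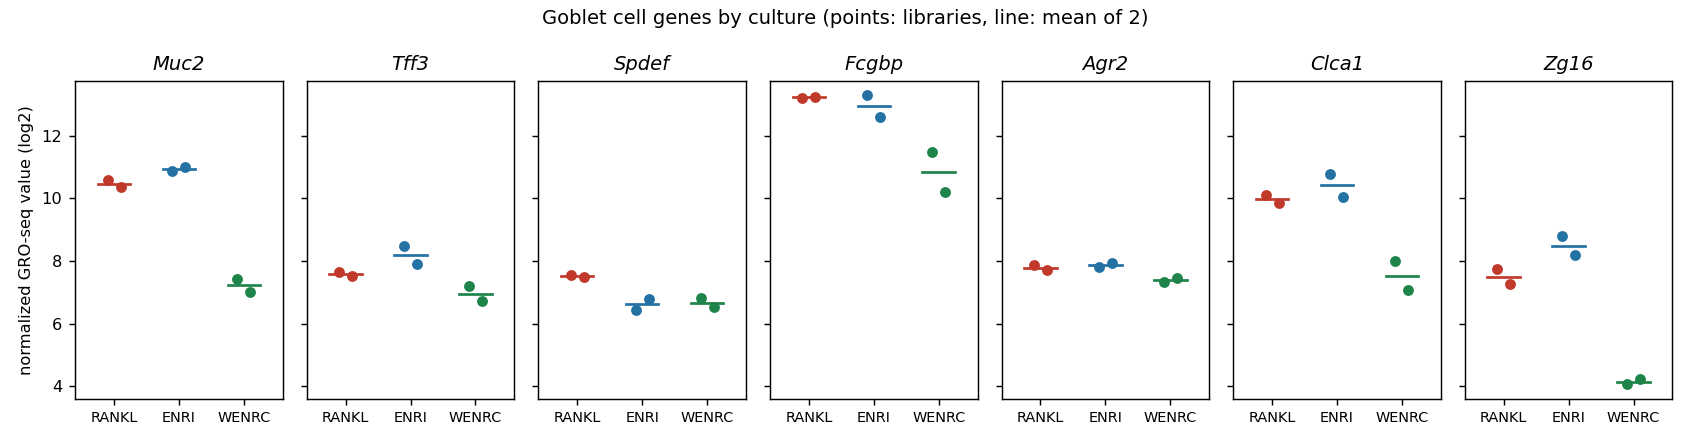
Normalized GRO-seq values (log2) of the 7 goblet cell genes, 1 panel per gene; points are the 2 libraries of each culture and the line is their mean. Muc2, Fcgbp, Clca1 and Zg16 sit lowest in both WENRC libraries, Spdef sits highest in both RANKL libraries, and the 6 values of Agr2 span 0.61.

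Muc2 (NM_023566), the gel-forming mucin, lies on the plus strand of chromosome 7 at 148876239 to 148940599 in mm9. Its log2 values were 10.58 and 10.37 in RANKL, 10.86 and 11.002 in ENRI, and 7.44 and 7.001 in WENRC. Both WENRC libraries stood below all 4 others, and the ENRI libraries stood above the RANKL libraries without overlap. Its log2 values spanned 4.001 from the lowest to the highest of the 6 libraries.

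Zg16 (NM_026918; chromosome 7, 134193670 to 134195491, minus strand), the bacteria-binding lectin, had log2 values of 7.74 and 7.25 in RANKL, 8.80 and 8.18 in ENRI, and 4.05 and 4.22 in WENRC. The 3 cultures did not overlap, with ENRI highest and WENRC lowest. Fcgbp (NM_001122603; chromosome 7, 28856255 to 28905883, plus strand), which encodes a mucus protein with von Willebrand factor type D domains, had values of 13.22 and 13.24 in RANKL, 13.29 and 12.62 in ENRI, and 11.49 and 10.21 in WENRC. RANKL and ENRI overlapped for Fcgbp, and the WENRC libraries lay below both and differed from each other by more than those of the other cultures. Clca1 (NM_017474; chromosome 3, 144667501 to 144695740, minus strand), the mucus metalloprotease, had values of 10.12 and 9.87 in RANKL, 10.80 and 10.03 in ENRI, and 8.0004 and 7.07 in WENRC. Again RANKL and ENRI overlapped and WENRC lay below both.

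Tff3 (NM_011575; chromosome 17, 31262251 to 31266556, minus strand), the trefoil peptide, had values of 7.65 and 7.52 in RANKL, 8.47 and 7.91 in ENRI, and 7.19 and 6.71 in WENRC. Its order of cultures was that of Muc2 and Zg16, over a narrower span. Agr2 (NM_011783; chromosome 12, 36719512 to 36730668, plus strand), the disulphide isomerase, had values of 7.86 and 7.72 in RANKL, 7.82 and 7.94 in ENRI, and 7.32 and 7.45 in WENRC. RANKL and ENRI overlapped for Agr2, and WENRC lay slightly below them. Spdef (NM_013891; chromosome 17, 27851392 to 27865896, minus strand), the transcription factor, had values of 7.54 and 7.49 in RANKL, 6.45 and 6.80 in ENRI, and 6.80 and 6.52 in WENRC. For Spdef the RANKL libraries stood above the other 4, and ENRI and WENRC overlapped. None of the 7 genes overlaps another gene of the table.

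Genes were ranked against each other only after the linear values had been divided by gene length in kb. In RANKL this level per kb was 194 for Fcgbp, followed by Zg16, Tff3, Clca1, Muc2, Agr2 and, at 12.6, Spdef. Only the neighbours Muc2 and Agr2 in that order overlapped between their libraries. In ENRI the level per kb was highest for Zg16, at 198, and lowest for Spdef, at 6.79; Zg16 overlapped with Fcgbp, and Tff3 with Clca1. In WENRC the order changed. Fcgbp (37.2 per kb) and Tff3 (28.6 per kb) came first and overlapped, Agr2 came next at 15.01, and Muc2 was lowest at 2.32. Because the deposited values appear to draw low genes together, the level per kb of a low gene can be too high. Zg16, at log2 values of 4.05 and 4.22 in WENRC, is such a gene. Which gene was lowest in WENRC is therefore uncertain. The whole set summed to linear values of 12635 and 13041 in the RANKL libraries, 10271 and 14791 in ENRI, and 1840 and 3732 in WENRC.

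In WENRC against ENRI, the stem cell culture against the enterocyte culture of the same 2 mice, 5 of the 7 genes were lower and 0 higher. Over all tested genes 9.74% were called lower and 4.85% higher in this comparison. Zg16 fell by 4.36 (SE 0.28, limma adjusted p = 0.00487), a 20.5-fold lower linear value, and Muc2 fell by 3.71 (SE 0.19, limma adjusted p = 0.00465), or 13.1-fold. Clca1 fell by 2.88 (SE 0.37, limma adjusted p = 0.0121), Fcgbp fell by 2.10 (SE 0.44, limma adjusted p = 0.0315) and Tff3 fell by 1.24 (SE 0.26, limma adjusted p = 0.0324). Agr2 differed by -0.49 (95% interval -0.88 to -0.11, limma adjusted p = 0.0890) and Spdef by 0.04 (-0.46 to 0.54, limma adjusted p = 0.916), so neither passed. The median of the 7 changes was -2.10, beside -0.01 over all tested genes, and 6 of the 7 had libraries without overlap, as did 58.5% of all tested genes.

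Within mouse 1 and mouse 2 taken apart, Zg16 differed by -4.75 and -3.96, Muc2 by -3.42 and -4.001, and Clca1 by -2.80 and -2.97. Fcgbp differed by -1.81 and -2.40, Tff3 by -1.29 and -1.20, and Agr2 by -0.50 and -0.48. The sign was the same in both mice for these 6 genes, while Spdef differed by 0.36 in mouse 1 and -0.28 in mouse 2. In the authors' deposited table the 5 genes called by limma were also lower at an adjusted p under 0.05, with log2 changes of -7.25 for Zg16, -4.33 for Muc2, -3.35 for Clca1, -2.24 for Fcgbp and -1.65 for Tff3; the authors' deposited table called 12.5% of the tested genes. With the 4 ENRI and WENRC libraries alone, or without either RANKL library or WENRC replicate 2, limma called 0 of the 7 genes, with 6 at an unadjusted p under 0.05, and without WENRC replicate 1 it called 1, Muc2. With the 4 libraries alone and mouse as the replicate block 3 were called, Muc2, Clca1 and Zg16.

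In RANKL against WENRC, the M cell culture against the stem cell culture, 4 of the 7 genes were higher and 0 lower. Of all tested genes 8.53% were called higher and 3.62% lower. Zg16 was higher by 3.36 (SE 0.28, limma adjusted p = 0.003025), 10.3-fold on the linear scale, and Muc2 by 3.25 (SE 0.19, limma adjusted p = 0.00144), 9.54-fold. Clca1 was higher by 2.46 (SE 0.37, limma adjusted p = 0.0139), 5.50-fold, and Fcgbp by 2.38 (SE 0.44, limma adjusted p = 0.0234), 5.21-fold. These are the same 4 secreted mucus proteins that were lower in WENRC than in ENRI, and both comparisons use the same WENRC libraries.

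Spdef differed between RANKL and WENRC by 0.85 (SE 0.21, limma adjusted p = 0.0508) and lay just outside the threshold. Tff3 differed by 0.64 (95% interval -0.00 to 1.28, limma adjusted p = 0.172) and Agr2 by 0.40 (95% interval 0.02 to 0.79, limma adjusted p = 0.155). All 7 genes had both RANKL libraries above both WENRC libraries, and 68.6% of all tested genes had groups without overlap in 1 direction or the other. The median of the 7 changes was 2.38, beside -0.01 for all tested genes. By the authors' deposited table, 5 of the 7 were higher, with log2 changes of 6.02 for Zg16, 3.80 for Muc2, 2.80 for Clca1, 2.51 for Fcgbp and 1.19 for Spdef (adjusted p = 0.00668 for Spdef in the authors' deposited table). That table called 27.8% of the tested genes in this comparison.

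The RANKL libraries come from a repeat sequencing with combined reads, per the file headers, so that sequencing run and RANKL culture cannot be told apart. The count of 4 fell to 0 without RANKL replicate 1 and to 0 without RANKL replicate 2 (5 of the 7 at an unadjusted p under 0.05 in limma each time), and to 2 (Muc2 and Zg16) without WENRC replicate 2. It rose to 6, all but Agr2, with the 4 compared libraries alone, without either ENRI library, or with the mouse as replicate block for ENRI and WENRC. The RANKL libraries were closest to each other: across genes, the difference between replicates had an SD of 0.220 in RANKL, 0.421 in WENRC and 0.699 in ENRI.

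In RANKL against ENRI, the M cell culture against the enterocyte culture, 1 of the 7 genes passed the test, Spdef, which was higher by 0.89 (SE 0.21, limma adjusted p = 0.0320), or 1.85-fold. Over all tested genes 20.9% were called, 10.4% higher and 10.5% lower. Zg16 differed by -0.997 (SE 0.28, limma adjusted p = 0.0560), Tff3 by -0.61 (SE 0.26, limma adjusted p = 0.155) and Muc2 by -0.46 (SE 0.19, limma adjusted p = 0.137). These 3 had lower values in both RANKL libraries than in both ENRI libraries without passing the test. Clca1 differed by -0.42 (limma adjusted p = 0.462), Fcgbp by 0.28 (limma adjusted p = 0.691) and Agr2 by -0.09 (95% interval -0.47 to 0.30, limma adjusted p = 0.725), each with overlapping libraries.

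The median of the 7 changes was -0.42, beside -0.00 for all tested genes, and 4 of the 7 genes had groups without overlap, beside 64.7% of all tested genes. In the authors' deposited table Spdef was higher in RANKL (log2 change 1.26, adjusted p = 0.0382) and Zg16 lower (-1.24, adjusted p = 0.0313), so that table called 2 of the 7, beside 19.6% of the tested genes. The call of Spdef held in 8 of 15 alternatives, with its adjusted p in limma between 0.00986 and 0.193; it was 0.0561 with the replicate block, 0.0652 with the 4 compared libraries alone, 0.190 without RANKL replicate 1, 0.193 without RANKL replicate 2, 0.0667 without WENRC replicate 1 and 0.0649 without WENRC replicate 2. With the replicate block 0 of the 7 genes were called in limma, with 3 at an unadjusted p under 0.05. That block joins the RANKL libraries to the mice by number, a link that the labels do not give. With the mouse as replicate block for ENRI and WENRC only, 3 were called, Spdef, Zg16 and Tff3, and without ENRI replicate 2 the same 3.

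**Figure D2:**
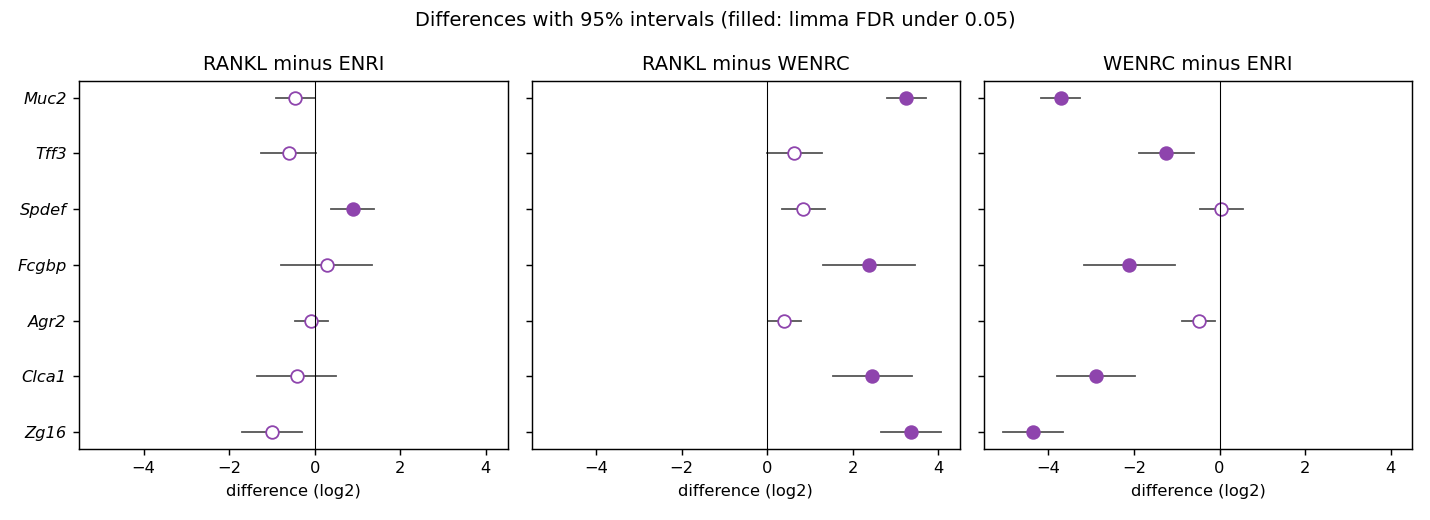
Changes of the 7 genes on the log2 scale in the 3 comparisons, with bars for the 95% intervals of the limma fit. Filled points passed the adjusted p of 0.05: 1 gene in RANKL against ENRI, 4 in RANKL against WENRC and 5 in WENRC against ENRI.

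Muc2, Fcgbp, Clca1 and Zg16, 4 of the 7 genes, were called lower in WENRC than in both other cultures, beside 2.42% (401) of the tested genes; the 2 calls share the WENRC libraries. Pearson's r over the 6 libraries, given as a description, was 0.98 between Muc2 and Zg16 and 0.97 between Muc2 and Clca1. Spdef had the lowest values, with r from -0.04 with Tff3 to 0.51 with Fcgbp. Among the 6980 tested genes that spanned at least 1 on the log2 scale, the 5 most like the mean centred profile of the 7 members were Ccdc152 (r = 0.996), 4930533B01Rik (0.995), Zfand6 (0.994), Serpinb1a (0.990) and H2-T23 (0.990). Of these, 4930533B01Rik and H2-T23 each overlap a gene on the other strand and are uncertain for that reason. The 6 points are 3 cultures with 2 libraries each, and the WENRC libraries hold the lowest values of that mean profile.

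The authors' H3K27me3 tables gave a picture of the mark at the same genes in RANKL and WENRC, without a replicate check. The RANKL table, which lists regions the authors called as holding more tags in RANKL than in WENRC, held 15 regions assigned to 6 of the 7 genes, all but Fcgbp. Of the tested genes 32.3% had such a region. The WENRC table held 2 regions, both assigned to Fcgbp, beside 23.3% of tested genes with one. By the authors' distances 5 of the 15 RANKL regions, at Muc2, Agr2 and Spdef, lay within 5 kb of a transcription start, and 18.0% of tested genes had one so near. Neither WENRC region did, and 5.01% of tested genes had one within 5 kb. Folds, p-values and distances here are the authors'; the RANKL values are tag counts and the WENRC values are tags scaled by the authors to the RANKL depth.

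Muc2 carried 8 of the RANKL regions, a number reached by 4.53% of tested genes. They covered 8075 bp, and their folds, above 1 by the way the table was made, ran from 2.3 to 3.89. Of these, 5 had their centre upstream of the start and the others within the gene. The largest, chr7:148874436-148876878 in mm9, was annotated as promoter and ran from 1803 bases before the start to 639 after it, with 157 tags in RANKL against 61.2 in WENRC (fold 2.56, with 1.24e-24 as the authors' p-value). The next largest covered exon 6 of 46, with 116 tags against 50.4 (fold 2.3). A region of the other direction also lay inside Muc2, chr7:148935141-148935641 in intron 35 of 45, with 5 RANKL tags against 18.9 in WENRC (fold 3.78); the authors' table assigns it to Muc5ac by the nearest start. The GRO-seq values of Muc2 were 10.47 ± 0.14 in RANKL and 7.22 ± 0.31 in WENRC.

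Agr2 had 1 RANKL region, chr12:36719105-36720154 in mm9, annotated to intron 1 of 7 and running from 407 bases before the start to 642 after it. It held 46 tags in RANKL against 7.2 in WENRC (fold 6.39, with 4.43e-22 as the authors' p-value), while the GRO-seq values of Agr2 were 7.79 ± 0.10 and 7.39 ± 0.09. Spdef had a region 4443 bp upstream by the authors' distance, which is to the start of another transcript (17 tags against 4.5, fold 3.78). From the start of NM_013891 it spanned positions -6745 to -6245, outside 5 kb. A second region lay 21516 bp downstream, inside intron 8 of the neighbouring gene Pacsin1 (77 tags against 27, fold 2.85). Pacsin1 itself had 8 RANKL regions.

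The other members had regions only farther off. Clca1 had 2 intergenic regions, 16253 bp (60 tags against 11.7, fold 5.13) and 18028 bp upstream (22 tags against 6.3, fold 3.49). Zg16 had 1 at 17918 bp upstream by the authors' distance, which is to another start (20 tags against 2.7, fold 7.41). From the start of NM_026918 it spanned positions -18866 to -18366. Tff3 had 1 at 14189 bp, in the last exon of the neighbouring gene Abcg1 (20 tags against 6.3, fold 3.17). Fcgbp went the other way, with an intergenic region 10094 bp upstream (5 RANKL tags against 17.1, fold 3.42) and a region in intron 6 of 19 (4 tags against 21.6, fold 5.40), both higher in WENRC, where its GRO-seq value was lower. At an authors' fold of at least 4, 3 of the 15 RANKL regions remained, at Agr2, Clca1 and Zg16, and 1 of the 2 at Fcgbp.

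**Figure D3:**
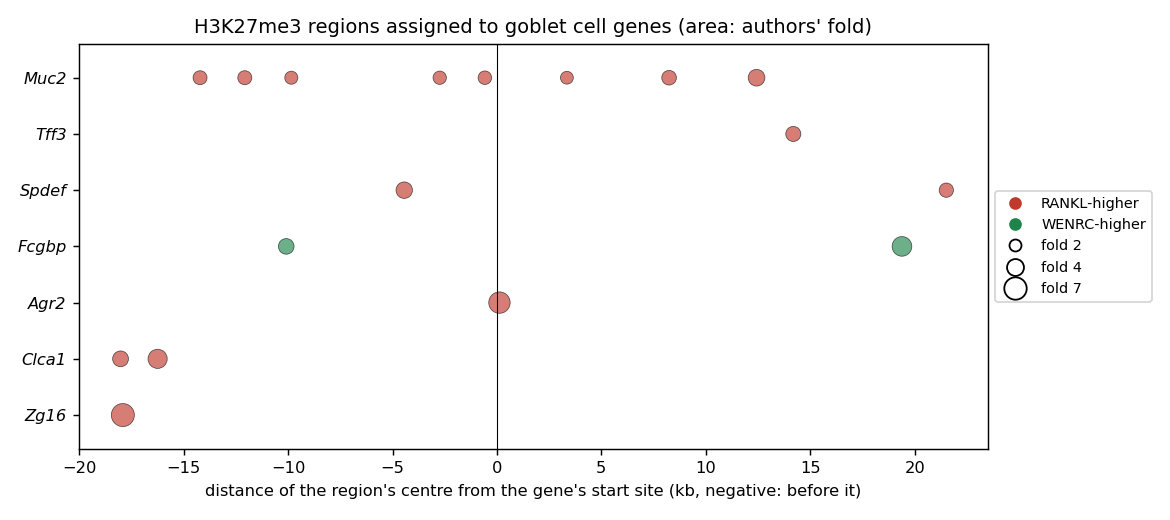
H3K27me3 regions assigned to the 7 genes, 1 row per gene, placed by the authors' distance of the region from a transcription start (kb, negative upstream). The area of a point is the authors' fold and its colour the culture with more tags. Muc2 has 8 regions higher in RANKL, Agr2 has 1 at its start, and the 2 regions at Fcgbp are higher in WENRC.

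Of the 6 members with a RANKL region, 3 (Muc2, Clca1 and Zg16) passed the GRO-seq test as higher in RANKL against WENRC. Of all tested genes with such a region at any distance 6.54% rose in RANKL against WENRC, and 5.2% of those with one within 5 kb. The share for all tested genes was 8.53%. Among the chromosomal neighbours of Muc2, Muc5ac was assigned 8 RANKL and 2 WENRC regions, 1 of these the region inside Muc2, and Muc5b 5 and 1, while Muc6 carried 0 of either kind. Agr3, the neighbour and paralog of Agr2, had 1 RANKL region at its start (23 tags against 9, fold 2.55).

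The 250 bases upstream of the start are shown for Muc2 and Agr2, the members whose H3K27me3 region covered the start, and for Fcgbp, which had regions of the opposite direction only. They are from RefSeq on GRCm38.p6, which differs from the build of the GRO-seq and ChIP-seq files, so coordinates of the builds are not to be compared. Of the 7 members 4 had an entry in the promoter table (Muc2, Spdef, Fcgbp and Agr2). The stretches are chr7:141690090-141690339 (plus strand) for Muc2, chr12:35992675-35992924 (plus strand) for Agr2 and chr7:28070986-28071235 (plus strand) for Fcgbp. Capitals mark matches on either strand to TATAAA (the motif called a TATA box), TTTAT (core of the CDX homeobox factors of intestinal epithelium), GGGCGG (GC box of the Sp and Klf factors), CAGCTG (an E-box, the motif class bound by basic helix-loop-helix factors such as ATOH1) and CAGGAT (an ETS core like that bound by SPDEF).
Muc2: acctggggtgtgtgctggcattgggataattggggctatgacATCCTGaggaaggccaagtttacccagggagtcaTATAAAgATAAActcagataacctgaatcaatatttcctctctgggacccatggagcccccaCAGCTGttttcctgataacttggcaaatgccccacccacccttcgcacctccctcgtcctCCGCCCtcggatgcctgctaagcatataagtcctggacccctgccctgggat
Agr2: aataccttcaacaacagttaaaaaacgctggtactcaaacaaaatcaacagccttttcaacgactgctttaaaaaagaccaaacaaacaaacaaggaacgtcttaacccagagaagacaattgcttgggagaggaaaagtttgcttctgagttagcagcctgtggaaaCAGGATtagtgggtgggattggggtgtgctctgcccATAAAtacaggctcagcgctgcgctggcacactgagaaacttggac
Fcgbp: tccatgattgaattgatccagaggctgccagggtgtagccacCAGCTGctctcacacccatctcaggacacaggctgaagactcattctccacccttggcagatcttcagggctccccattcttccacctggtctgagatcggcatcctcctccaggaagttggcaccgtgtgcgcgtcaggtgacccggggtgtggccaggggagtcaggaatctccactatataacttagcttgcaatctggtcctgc

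The Muc2 stretch held the letters TATAAA 174 bases before the start, with which a CDX core overlaps on the other strand. It also held a second CDX core, a GC box, an E-box and an ETS core. The Agr2 stretch held a CDX core and an ETS core, that of Spdef also a CDX core and an ETS core, and that of Fcgbp an E-box. Only exact letters were searched, so TATAAG near the end of the Muc2 stretch and TATATAA near that of Fcgbp stay unmarked. The FOXA core TGTTTAC was in none of the 4. Of all 32817 RefSeq promoters of this length, 12.4% held TATAAA, 37.3% TTTAT, 32.7% GGGCGG, 13% CAGCTG, 13.6% CAGGAT and 3.16% TGTTTAC. The GC content was 53.2% for Muc2, 52.8% for Spdef, 56.4% for Fcgbp and 44.4% for Agr2, with 4, 7, 5 and 5 CpG sites, beside medians of 52.4% and 6 over all promoters. A match is a description of letters and not a bound site.

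Other genes of the goblet cell were read from lists to see how far they followed the 7 members. Of 25 further goblet products and markers, 22 were tested. In RANKL against WENRC 5 were higher and 3 lower (median 0.23), and in RANKL against ENRI 3 were higher and 2 lower (median -0.10). In WENRC against ENRI 2 were higher and 6 lower (median -0.18). Of all tested genes 8.53% were higher and 3.62% lower in RANKL against WENRC, and 10.4% and 10.5% in RANKL against ENRI. In WENRC against ENRI these shares were 4.85% and 9.74%. Ccl6, a chemokine gene, was higher in RANKL than in WENRC by 2.49 (SE 0.22, limma adjusted p = 0.00329) and than in ENRI by 1.38. Hepacam2, a cell surface protein gene, was higher by 1.56 and 1.20 in the same comparisons. Bcas1 was higher in RANKL than in WENRC by 1.70 and lower in WENRC than in ENRI (-1.45), and Sytl2, which encodes a synaptotagmin-like protein of vesicle docking, was higher by 1.03 and lower (-1.01) in the same comparisons. The 3 called lower in RANKL than in WENRC, named here after their values were seen, were Spink4 (-0.90, limma adjusted p = 0.0192), Atp2c2 (-1.38, limma adjusted p = 0.0156) and Lrrc26 (-1.07, limma adjusted p = 0.0187). Spink4 and Atp2c2 were also the 2 called lower in RANKL than in ENRI (-0.92 and -1.37). Strand handling is not stated, and Ccl6, Bcas1 and Lrrc26 each overlap a gene on the other strand, so reads of the pair cannot be told apart.

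Of 8 tested mucins 2 were higher in RANKL than in each other culture, Muc4 and Muc20. Over all tested genes 10.4% were called higher in RANKL than in ENRI and 8.53% than in WENRC. Muc4, a membrane mucin, was higher than in ENRI by 3.15 (SE 0.16, limma adjusted p = 0.00104) and than in WENRC by 2.27, and Muc20 by 1.65 and 1.28; the genes overlap on opposite strands and are uncertain for that reason. In WENRC against ENRI 1 of the 8 mucins was higher and 2 were lower (median -0.04). Over all tested genes 4.85% were called higher and 9.74% lower in that comparison. The 2 lower were Muc6, a gel-forming mucin next to Muc2 (change -1.24, SE 0.17, limma adjusted p = 0.0129), and Muc13, a membrane mucin (change -1.40, SE 0.35, limma adjusted p = 0.0482). The neighbouring gel-forming mucin Muc5ac was too low to be tested, at log2 values of 2.54 to 2.95, and Muc5b differed from WENRC by -0.76 in RANKL (limma adjusted p = 0.0769) with a mean of 6.37 against 7.13.

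Factors of the secretory lineage changed in both directions. Of 15 tested, 1 was higher and 3 were lower in RANKL than in WENRC, and 3 were higher and 4 lower in RANKL than in ENRI. In WENRC against ENRI 2 were higher and 2 lower. The shares called over all tested genes were 12.1%, 20.9% and 14.6%, in the same order. Hes1, the Notch target that opposes secretory fate, was lower in RANKL than in ENRI (change -1.21, SE 0.19, limma adjusted p = 0.0108) and than in WENRC (-1.31). Xbp1, the factor of the unfolded protein response in secretory cells, was lower in the same comparisons (-1.35 and -0.86), as was Elf3, an epithelial ETS factor (-0.95 and -0.79). Klf4, a factor of goblet cell differentiation, was lower in RANKL than in ENRI (-1.82) and in WENRC than in ENRI (-1.53). It differed by -0.29 between RANKL and WENRC (limma adjusted p = 0.591). The 3 called higher in RANKL than in ENRI, named here after their values were seen, were Foxa3 (1.01), Dll4 (0.99) and Foxa2 (0.80). Dll4 overlaps a gene on the other strand and is uncertain for that reason.

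Agr2 works with the folding machinery of the secretory pathway, of which 23 genes were tested. In RANKL against ENRI 3 were higher and 5 lower, and in RANKL against WENRC 1 was higher and 0 were lower. In WENRC against ENRI 1 was higher and 1 lower. The shares called over all tested genes were 20.9%, 12.1% and 14.6%, in the same order. The chaperone gene Calr was higher in RANKL than in ENRI by 1.37 and than in WENRC by 0.98, and the disulphide isomerase gene Pdia5 was higher than in ENRI by 1.21. The disulphide isomerase gene P4hb was lower in RANKL than in ENRI (-2.04) and in WENRC than in ENRI (-1.64), and Herpud1, a gene of the degradation of misfolded proteins, was lower in RANKL than in ENRI (-1.48).

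Of 30 tested genes of mucin O-glycosylation, 4 were higher and 9 lower in RANKL than in ENRI (median -0.55). In RANKL against WENRC 4 were higher and 2 lower, and in WENRC against ENRI 1 was higher and 4 lower. The shares called over all tested genes were 20.9%, 12.1% and 14.6%, in the same order. St3gal1, a sialyltransferase gene, was higher in RANKL than in ENRI by 1.39 and than in WENRC by 2.66, and lower in WENRC than in ENRI (-1.27). Galnt12, which encodes an enzyme that starts O-glycans, was higher in RANKL than in ENRI by 1.78 and than in WENRC by 1.45. Galnt7, of the same family, was lower in both comparisons (-1.81 and -1.74), as was Gcnt3, which makes branched O-glycans of mucins (-2.36 and -1.36). Galnt7 overlaps a gene on the other strand and is uncertain for that reason.

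**Figure D4:**
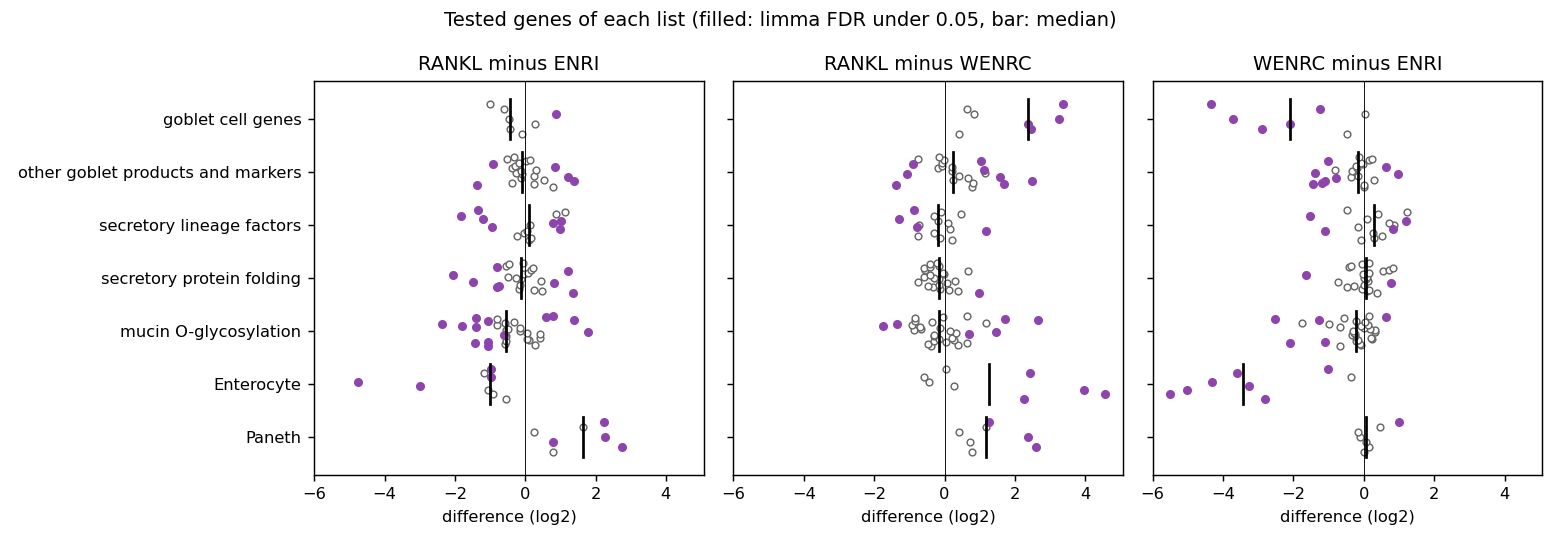
Changes of each tested gene in the goblet-related lists and marker lists on the log2 scale, in the 3 comparisons; filled points passed the adjusted p of 0.05 and the line marks the list's median. The 7 members have medians of 2.38 in RANKL against WENRC and -2.10 in WENRC against ENRI, and the other goblet lists have medians between -0.55 and 0.29 in all 3 comparisons.

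Clca1 lies in a row of related genes on chromosome 3, and these changed in different directions. Clca3a2, Clca3a1 and Clca3b were higher in RANKL than in ENRI by 3.48 (SE 0.16, limma adjusted p = 0.000963), 2.45 and 3.39, and than in WENRC by 1.56, 1.02 and 1.54. Clca1 differed by -0.42 between RANKL and ENRI, with ENRI levels of 10.80 and 10.03. The same 3 relatives were higher in WENRC than in ENRI by 1.92, 1.42 and 1.85, where Clca1 fell by 2.88. Clca4b was called in the same comparisons as Clca1, higher in RANKL than in WENRC by 3.85 (SE 0.34, limma adjusted p = 0.00334) and lower in WENRC than in ENRI (-2.74). Between RANKL and ENRI Clca4b differed by 1.12 (limma adjusted p = 0.0665), the opposite direction to Clca1. The authors' deposited adjusted p for that change of Clca4b was 0.000915. Clca2 was lower in RANKL and in WENRC than in ENRI (-0.97 and -0.94), and Clca4a passed in no comparison. Clca3a1, Clca3a2 and Clca3b are close paralogs whose reads could be split between them, so their separate values are uncertain. Of the other paralogs Tff1 and Tff2 were too low to be tested, and Agr3, at 3.47 to 4.27, passed in no comparison.

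**Figure D5:**
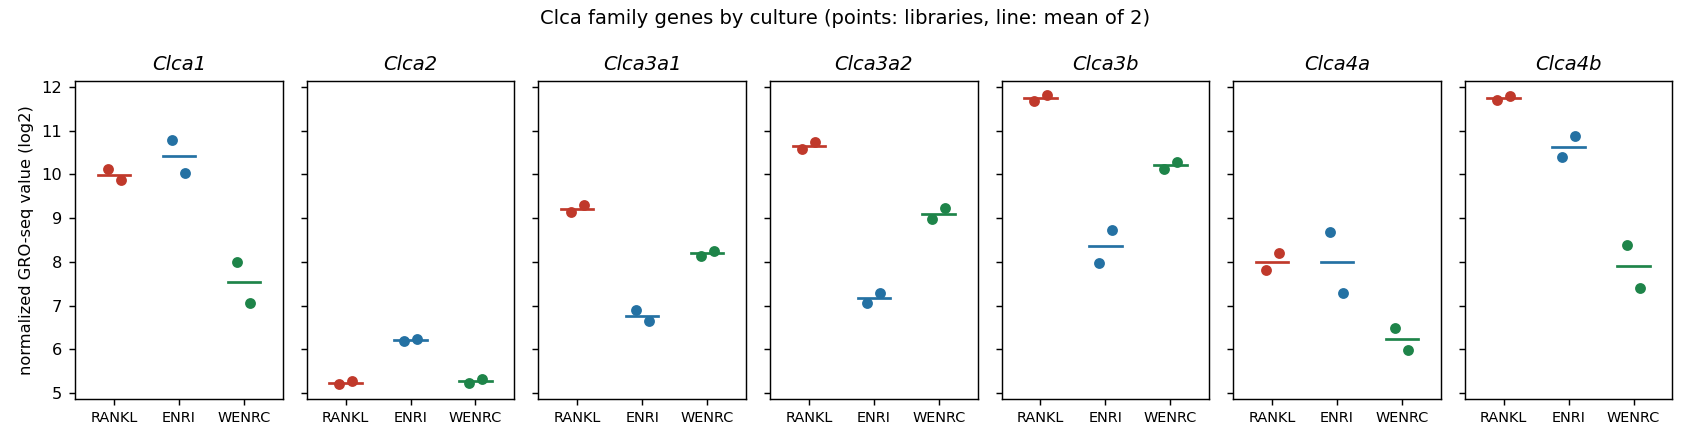
Normalized GRO-seq values (log2) of the Clca genes in the 3 cultures; points are the 2 libraries and the line is their mean. Clca1 and Clca4b are lowest in WENRC, while Clca3a1, Clca3a2 and Clca3b are lowest in ENRI and highest in RANKL.

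Markers of other cell types were read in the same libraries. Over all tested genes 10.4% were called higher in RANKL than in ENRI and 8.53% higher than in WENRC. In WENRC against ENRI 9.74% were called lower. M cell markers summed to linear values of 4775 and 5286 in RANKL, 237 and 780 in ENRI, and 497 and 556 in WENRC, with all 7 called higher in RANKL than in ENRI. Enterocyte markers summed to 25325 and 27975 in RANKL, 46384 and 77204 in ENRI, and 4711 and 9225 in WENRC, and stem cell markers to 14238 and 15209, 3865 and 6105, and 20116 and 20834. In WENRC against ENRI, 7 of 8 enterocyte markers were lower (median -3.43), so the secreted mucus genes and the enterocyte genes had the same direction there. They also shared a direction in RANKL against WENRC, where 4 of 8 enterocyte markers were higher and 0 lower (median 1.27). In RANKL against ENRI 4 of 8 enterocyte markers were lower and 0 higher (median -1.01), beside 10.5% of all tested genes called lower. The part of the enterocyte genes in the result was not tested. Paneth cell markers, which share secretory origin and Spdef with goblet cells, summed to 2847 and 3117 in RANKL, 518 and 1103 in ENRI, and 679 and 945 in WENRC, with 4 of 7 higher in RANKL than in ENRI and 3 of 7 higher than in WENRC. Mmp7 was higher in RANKL by 2.24 and 1.25, Defa24 by 2.27 and 2.39, and Defa17 by 2.76 and 2.60; the defensin genes are near-identical copies and are uncertain singly. Tuft cell markers summed to 614 and 640 in RANKL, 248 and 270 in ENRI, and 240 and 348 in WENRC, with 2 of 5 higher in RANKL than in each other culture. Enteroendocrine markers summed to 1392 and 1898 in RANKL, 543 and 989 in ENRI, and 464 and 815 in WENRC, with 1 of 6 higher in RANKL than in each. The part of the Paneth, tuft and enteroendocrine signals in the Spdef values was not tested. Non-epithelial markers summed to 58.3 to 82.0 in all 6 libraries, with 3 of 6 below the filter value in every library. Libraries of mouse 1 also differed from the other 4 in Xist, with log2 values of 4.52 and 5.42 against 10.90 to 12.18.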

How the data were processed

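Nascent transcription was measured in 6 GRO-seq libraries, 2 each of RANKL, ENRI and WENRC, and H3K27me3 in 3 ChIP-seq libraries. The submitters' processing notes name Bowtie2 2.3.4.1, HOMER, DESeq2 and mm9. Per the file headers, the authors counted reads over whole RefSeq genes with HOMER and normalized them; the deposited values are on a log2 scale, with a shape like a regularized logarithm (inferred from the values), which draws low genes together. The deposited table also gives, for each pair of cultures, the authors' p-value and adjusted p-value and their log2 change, which was turned to first minus second culture. The H3K27me3 tables hold, as deposited, a tag count for RANKL, a scaled signal for WENRC, the authors' fold as a ratio of tags and a p-value. Strand handling is not given in the sources used here, and GRO-seq depth is unknown, so no interval that needs it is given.

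The deposited log2 values of all 6 libraries were fitted in limma 3.58.1 (R 4.3.3) with 3 group means and a variance trend, for 16563 genes with a value of at least 10 on the linear scale in at least 2 libraries. P-values are two-sided and adjusted by Benjamini-Hochberg. Another 2131 genes stood at exactly 0 in every library and were not tested. The fit was tested on simulated data. Genes were named by rule: all 7 members, of each other list at most the 4 (3 for lists under 8 genes) with the smallest p, the paralogs and neighbours, and the 5 most like the mean profile. The members and lists were chosen with earlier results of these data known. Alternatives were 2 rescalings, no filter, a stricter filter at 100, the compared libraries alone, no trend, blocks, and each library left out.

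The labels do not say that the 2 RANKL libraries are separate cultures or animals, so p-values measure only the spread between these libraries. The mouse numbers pair ENRI and WENRC, which come from the same animals (r = 0.41 across genes between same-numbered deviations); their header dates also go with the mouse. RANKL carries replicate numbers only (r = -0.20 with ENRI and -0.32 with WENRC).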

Additional observations from a re-analysis of the deposited data

Results flagged for a closer look

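Spdef differed between WENRC and ENRI by 0.357 on the log2 scale in mouse 1 and by -0.276 in mouse 2, so the 2 mice moved in opposite directions. Each value rests on 1 library of each culture, and the difference between the mice was not tested.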

How the results depend on the processing

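Over the alternatives with a test for single members, 249 values kept their direction and side of the threshold, 43 lost the call, 20 gained it and 3 reversed; of the within-mouse values, which have no test, 10 moved by less than the spread, 3 by more and 1 reversed. The reversed values were Fcgbp in RANKL against ENRI without ENRI replicate 2 (-0.0621; 0.61 without replicate 1), and Spdef in WENRC against ENRI without ENRI replicate 1 (-0.13; 0.22 without replicate 2), without WENRC replicate 1 (-0.10) and within mouse 2 (-0.28); the cause was not tested. In RANKL against ENRI, 3464 of the tested genes were called, 1925 with the 4 compared libraries alone and 64 to 6966 with 1 library left out; of the members 1 was called, 2 with quantile normalization or the stricter filter, 0 with the 4 libraries alone and 0 to 3 with 1 library left out. In RANKL against WENRC, 2012 genes were called, 5194 with the 4 libraries alone and 0 to 5176 with 1 left out (at 0 genes, without RANKL replicate 1 or 2, 2702 and 2486 had an unadjusted p under 0.05 in limma), with 0 to 6 members. In WENRC against ENRI, 2416 were called, 0 with the 4 libraries alone (4074 at an unadjusted p under 0.05) and 0 to 6650 with 1 left out; of the members 0 were called with the 4 libraries alone and 0 to 6 with 1 left out. Fits with fewer libraries have fewer residual degrees of freedom, but the counts did not all fall. With the 4 compared libraries alone the count rose in RANKL against WENRC and fell in both other comparisons. The fit of all 6 libraries also draws its spread from the culture not compared. Between replicates ENRI differed most across genes (SD 0.699) and RANKL least (SD 0.220). How far the calls depend on the spread of each culture was not tested. Medians of the 7 changes ran from -0.55 to -0.14, 1.74 to 2.93 and -2.74 to -1.47 with 1 library left out. Where that leaves 1 library in a culture, it is assumed to vary like the others.

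With the replicate block over all numbers, 2712, 1465 and 1506 genes and 0, 4 and 5 members were called in the 3 comparisons. Added after seeing the data, the mouse as replicate block for ENRI and WENRC alone gave 4749, 2945 and 3545 genes and 3, 6 and 5 members, and the replicate block with the 4 compared libraries gave 1423, 4686 and 124 genes and 0, 6 and 3 members. Of called genes 70.2% were higher in RANKL than in WENRC, 53.3% with upper quartile recentring (which moved the median of all genes by -0.12) and 58.7% with quantile normalization; in WENRC against ENRI 33.2% were higher, 54.1% and 51.7%. Of the 15 RANKL regions 5 lay within 5 kb of a start and 3 reached a fold of 4; of the 2 WENRC regions 0 and 1 did.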
